A study of Rattus norvegicus with 16 samples.

Results

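Srf encodes serum response factor (SRF), and binding of the SRF protein at its own gene was followed through a pair of regions of the genome. The study mapped SRF by chromatin immunoprecipitation and sequencing (ChIP-seq) in wild-type primary cultures from rat brain. The authors merged the peaks of their SRF libraries into 848 consensus regions, and the 2 regions whose nearest gene is Srf were taken, with their reads and with any peak over them in each library. Oligodendrocyte precursor cells (OPC, isolated by immunopanning, which captures cells on antibody-coated dishes) were fixed either in proliferation medium or, as oligodendrocytes (OL), on day 3 after the change to differentiation medium. SRF was precipitated with a rabbit monoclonal antibody in 4 OPC preparations (replicates 1 to 4) and in 3 OL preparations (replicates 1, 2 and 4). Each stage also had 1 library made with nonspecific IgG, and 7 libraries of input chromatin complete the 16. Replicates within a stage were separate cell preparations. The plates of a preparation were divided between the stages, so OPC and OL libraries can share a preparation. No label ties a replicate number to a preparation, and the labels state neither the age nor the sex of the rats. ChIP-seq gives no expression values, so the labelled cell types were not checked against marker genes, and whether SRF bound at Srf changes the gene's transcription was not tested. In such cultures, fewer cells with SRF at a site and less SRF per cell cannot be told apart.

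SRF is a MADS-box transcription factor that binds, as a dimer, a DNA element called the CArG box, which has CC at one end, GG at the other and a core of A and T bases. It activates genes together with either of 2 groups of cofactors. Ternary complex factors such as ELK1 respond to ERK signalling and bind an ETS core (GGAA) close to the box, whereas MRTF proteins respond to the pool of unpolymerised actin. In mouse cells, the Srf gene is known to be induced by serum through CArG boxes in its own promoter, so that SRF belongs to its own targets.

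The rat promoter of Srf held a pair of CArG boxes, and is shown here because the widely called SRF region lies at this promoter. The sequence is from RefSeq (build GRCr8, chr9:21923826-21924049, plus strand) and runs from 250 to 27 bases before the transcription start site (TSS) of the RefSeq promoter window, ending where the annotated gene begins. Capitals mark, in order, both CArG boxes and a further element that departs from a CArG box at 1 base.
Srf promoter: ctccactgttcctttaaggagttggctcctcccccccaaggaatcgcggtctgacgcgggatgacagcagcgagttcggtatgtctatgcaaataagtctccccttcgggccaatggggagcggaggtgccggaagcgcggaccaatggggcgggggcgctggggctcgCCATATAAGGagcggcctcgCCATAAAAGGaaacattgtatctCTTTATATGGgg

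The boxes lay at -81 to -72 and -61 to -52 bases from the RefSeq TSS (negative values are upstream), 20 bp apart from centre to centre. The near match lay at -38 to -29. The CArG box was searched on both strands as CC, 6 bases that are A or T, and GG. It occurred in 548 of 33469 RefSeq promoter windows (1.64%), each covering 250 bases before to 50 after a TSS. Windows with 2 or more boxes numbered 7 (0.0209%) and cover 5 separate stretches of DNA. One of these windows is that of LOC120094784, a noncoding RNA gene read in the opposite direction from Srf, and shares 289 bases with the Srf window. A box with 1 mismatch was present in 20.2% of windows.

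**Figure D1:**
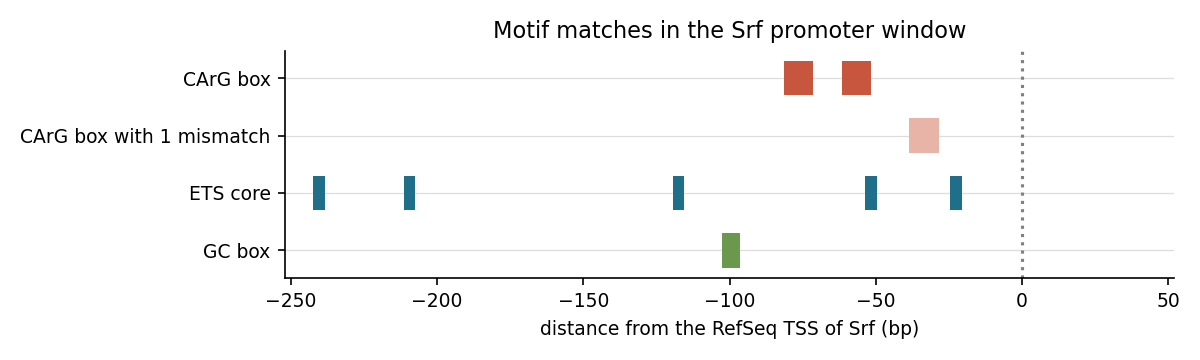
Motif matches in the RefSeq promoter window of Srf, by distance from the RefSeq TSS in bp (dotted line), with 1 row per motif and bars as wide as the match. Both CArG boxes sit between -81 and -52, and the near match and 2 ETS cores lie beside or after them.

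Letters of known partner factors were also present. The ETS core GGAA matched at 5 places on either strand, one of which, at -53 to -50, overlaps the last bases of the second CArG box. ETS cores are short and frequent, with at least 1 in 95.8% of windows and 5 or more in 29.2%. The GC box GGGCGG, the element of SP1, matched once, at -102 to -97, and was present in 33.1% of windows. These are matches of letters in a window and do not show which factor was bound.

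The arrangement can be set beside that of other known SRF targets whose window holds an exact CArG box and which had an SRF region in these data. These are Egr1 and Egr2 (transcription factors of the immediate early response), Dusp5 (a phosphatase of ERK), Actg1 (cytoplasmic gamma actin) and Cnn2 (a calponin that binds actin). Each line gives the boxes in capitals with 5 bases on either side, from RefSeq (GRCr8).
Srf: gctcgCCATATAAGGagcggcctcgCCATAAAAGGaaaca
Egr1: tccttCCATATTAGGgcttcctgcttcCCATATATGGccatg
Dusp5: aacacCCATATTTGGCCTTATATGGgcact
Egr2: tcagtCCATATATGGgcagc
Actg1: gatcgCCATATATGGacatg
Cnn2: ccacgCCTTATAAGGgcatt
Srf, Egr1 and Dusp5 each had 2 boxes, at a distance of 20, 22 and 10 bp from centre to centre. The first box began at -81 in Srf, -105 in Egr1 and -82 in Dusp5. Of the 5 separate stretches with 2 or more boxes, these 3 had a reproducible SRF region named for a gene whose TSS is within 1 kb, where reproducible means a peak in at least 2 SRF libraries and in no IgG library.

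The promoter region of Srf (Rnor_6.0, chromosome 9, 16737468 to 16737736) spans the TSS of the annotation used by the authors, with its centre 40 bp upstream. The second region (chromosome 9, 16740703 to 16740838) lies in intron 2 of 6, with its centre 3128 bp downstream. Srf is the protein-coding gene ENSRNOG00000018232, and 2966 bp separate the regions. Neither was covered by an IgG peak, and 0 of 126 IgG regions had Srf as the nearest gene. Reads of the IgG libraries at Srf were not counted in the tables used here, and the OL IgG library held 1551203 tags only.

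SRF depth differed widely. The OPC libraries held 9054483 to 20303444 tags, whereas OL replicates 1, 2 and 4 held 12103611, 2394854 and 3363937. Between 0.116 and 0.379% of tags lay in consensus regions, both extremes being OPC libraries, and the authors called between 47 and 714 peaks per library.

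The promoter of Srf was called in 4 libraries, namely OPC replicates 1, 2 and 4 and OL replicate 1. Of all regions 34.7% were called in at least 4 SRF libraries, and 52.8% were reproducible, so that the promoter of Srf is among a large class. Peaks covered 49.8, 26.3, 43.4 and 83.8% of the regions in OPC replicates 1 to 4, and 49.8, 5.54 and 19.5% in OL replicates 1, 2 and 4. The intron region was called in OPC replicate 4 alone, as were 30.2% of all regions, while 43.9% were called in 1 SRF library of any kind.

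**Figure D2:**
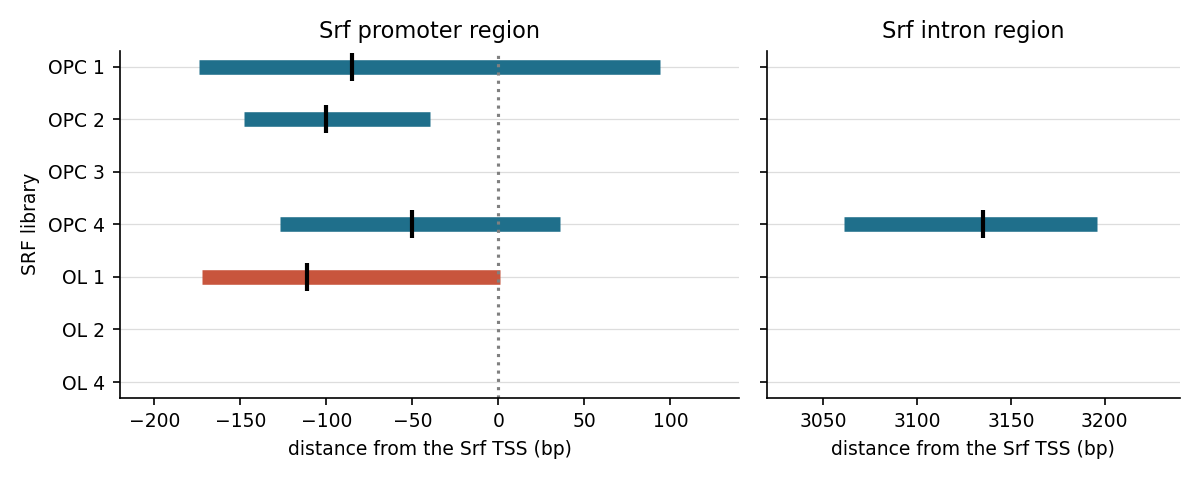
Peaks that the authors called at Srf in each SRF library, as bars (OPC blue, OL red) by distance from the TSS in bp (dotted line), with the summit as a black tick. The 4 promoter peaks have summits between -111 and -50 bp, and the intron peak appears in OPC replicate 4 alone.

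The 4 promoter peaks were close to each other. Their summits fell at positions 16737557, 16737542 and 16737592 in OPC replicates 1, 2 and 4, and at 16737531 in OL replicate 1. All lay upstream of the TSS, at -85, -100, -50 and -111 bp, within a span of 61 bp. All 4 peaks shared an 88 bp stretch from -127 to -40 bp. These distances refer to the Ensembl TSS in Rnor_6.0, and those of the CArG boxes to the RefSeq TSS in GRCr8. The builds were not aligned to each other, so the exact offset between summits and boxes is not given.

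By the authors' peak values, Srf was a promoter of middling to low enrichment. The fold enrichment over the local input background was 10.4 in OPC replicate 1, 6.92 in OPC replicate 2, 11.2 in OPC replicate 4 and 5.70 in OL replicate 1. The median peak of the same libraries had 9.17, 8.60, 9.42 and 10.1. The peak of Srf therefore ranked 176th of 432, 172nd of 232, 289th of 714 and 388th of 436 by fold. The pileup signal at the summit was 15, 13, 15 and 13, and the pileup divided by the fold, which tracks the input background that the caller used, was 1.44, 1.88, 1.34 and 2.28. The peak of OL replicate 1 thus had the lowest fold of the 4 and the highest background. Its −log10 q was 4.49, against 6.07 to 14.6 for the OPC peaks. In the intron, the peak of OPC replicate 4 had a fold of 9.76 and ranked 340th of 714.

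The promoter region held 33, 27, 13 and 26 reads in OPC replicates 1 to 4 and 30, 9 and 4 in OL replicates 1, 2 and 4. Scaled to 1000000 tags (RPM), this was 2.66, 1.33, 1.11 and 2.87 in OPC, and 2.48, 3.76 and 1.19 in OL. The highest and the second lowest of the 7 values belonged to OL replicates 2 and 4, and the stages overlapped. With 9 and 4 reads, the 95% Poisson intervals of these OL libraries were 1.72 to 7.13 and 0.324 to 3.04 RPM (counting error only). Tags spread evenly over the effective genome size of 2000000000 bases would have given 0.372 to 3.18 reads at the promoter, and the observed reads were between 7.09 times this (OPC replicate 3) and 24.2 times (OL replicate 2). An even spread is no control for SRF binding, and the region was drawn on peaks of these same libraries. The intron region, without a call in OL, had 9.23, 9.38 and 9.96 times in OL replicates 1, 2 and 4.

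**Figure D3:**
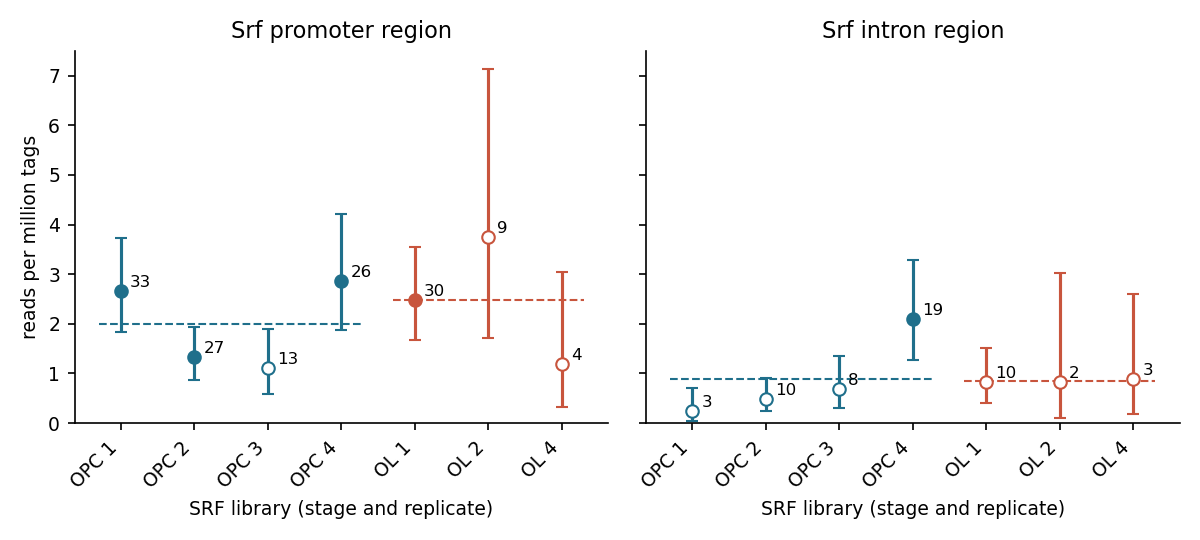
Reads at both Srf regions per 1000000 tags (RPM) in each SRF library (OPC blue, OL red), with 95% Poisson intervals, the read count beside each point, filled points where the authors called a peak, and dashed lines at the stage means. At the promoter the OPC libraries run from 1.11 to 2.87 and the OL libraries from 1.19 to 3.76, so the stages overlap.

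The mean at the promoter was 1.99 ± 0.901 RPM over the 4 OPC libraries (SD, n = 4). Over the 3 OL libraries it was 2.48 ± 1.28 RPM (SD, n = 3). The difference of 0.482 was smaller than the spread between replicates (p = 0.686 by a two-sided exact permutation test whose 35 splits allow no p below 0.0571, and p = 0.914 after adjustment for the 2 regions of Srf). Without OL replicate 2 the difference turned to -0.159.

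Relative to other regions, no difference between the stages was detected at the promoter of Srf. After TMM scaling, which removes a change common to most regions, the OPC libraries had 25.5, 24.4, 11.6 and 14.6 normalised reads, in the order of their numbers. The OL libraries had 24.1, 54.7 and 13.8. OL replicate 2 stood above all others on this scale, and the other OL libraries lay within the OPC range. The fitted log2 fold change of OL over OPC was 0.47 ± 0.41 (SE), and its p by the quasi-likelihood test of edgeR, adjusted by Benjamini-Hochberg over 557 regions, was 0.607. This equals a fold of 1.38 with a 95% interval of 0.737 to 2.59, which holds both no change and a 2-fold rise. In the same fit 2.15% of regions passed (12 of 557, 2 higher and 10 lower in OL, with 122 at an unadjusted p under 0.05), whereas DESeq2 called 29 higher and 13 lower. The Srf promoter passed in neither fit.

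**Figure D4:**
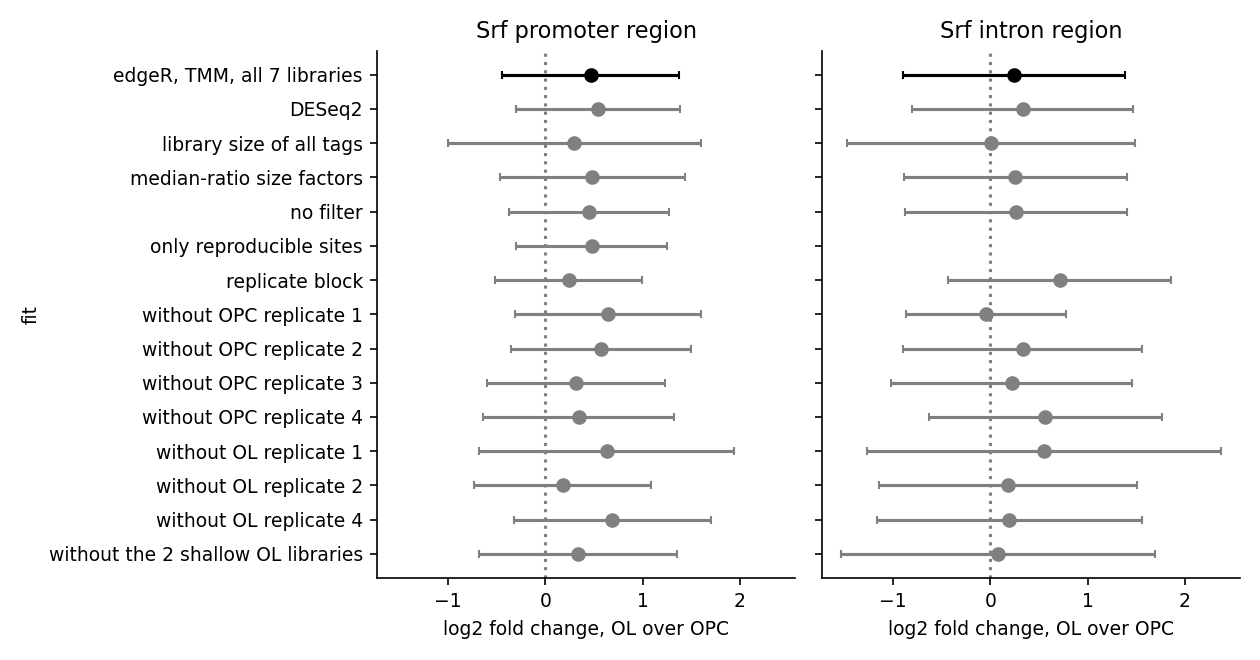
Log2 fold change of SRF reads, OL over OPC, at both Srf regions under each fit, with 95% intervals; the black point is the edgeR fit with TMM over all 7 libraries, and the fit on reproducible sites does not hold the intron region. Promoter values run from 0.18 to 0.69 and every interval includes 0.

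The libraries without a peak at the promoter held few reads there, and most other regions with as many reads were not called either. In OPC replicate 3, which had 13 reads at Srf, 32 of the 103 other regions within 2 reads of that count were called (31.1%). In OL replicate 2 it was 5 of 83 (6.02%) and in OL replicate 4 it was 3 of 322 (0.932%). For the 26 reads of OPC replicate 4 it was 59 of 59. In OL replicate 4 the median of all regions was 3 reads, beside 4 at Srf. Whether SRF was present at the regions of like count is not known. The missing calls in OL replicates 2 and 4 therefore cannot tell whether SRF was bound at Srf in these libraries. In OL replicate 2 more reads fell on Srf than on 84.9% of all regions.

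At the intron region the read counts were 3, 10, 8 and 19 in OPC replicates 1 to 4 and 10, 2 and 3 in OL replicates 1, 2 and 4. In RPM this was 0.242, 0.493, 0.683 and 2.10 in OPC against 0.826, 0.835 and 0.892 in OL. OPC replicate 4 stood highest, and the OL values lay between it and the other OPC libraries. The OPC mean was 0.879 ± 0.833 RPM (SD, n = 4). The OL mean was 0.851 ± 0.0356 RPM (SD, n = 3), and the two-sided exact permutation p was 0.914. The bounds of this region are those of the single peak in OPC replicate 4, and the bounds of the promoter region are those of the peak in OPC replicate 1, so each region was drawn on the library that had most reads there. Without OPC replicate 4, the difference at the intron turned from -0.0279 to 0.379, and the point values of the stages no longer overlapped. The exact permutation test gave p = 0.1, the smallest that 3 against 3 libraries can give. The Poisson intervals (counting error only) still overlapped. They were 0.396 to 1.52, 0.101 to 3.02 and 0.184 to 2.61 RPM in OL replicates 1, 2 and 4. Their upper ends were 0.707, 0.906 and 1.35 RPM in OPC replicates 1 to 3. The OL SD was far narrower than these intervals. How many other regions separate in this way was not counted. In the edgeR fit over all regions the log2 fold change of the intron was 0.25 ± 0.51 (SE), with an adjusted p of 0.855. Leaving out OPC replicate 4 gave 0.57 and an edgeR adjusted p of 0.706, and leaving out OPC replicate 1 gave -0.04.

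Per length, promoter and intron differed less than their calls. In OPC replicate 1 the promoter held 12.3 reads per 100 bp and the intron 2.21, a ratio of 5.56. In the other libraries the ratio was between 0.674 in OL replicate 4 and 2.28 in OL replicate 2. It exceeded 1 in 4 of 7 libraries, with a geometric mean of 1.39 (exact sign-flip permutation test, two-sided, p = 0.328). Reads that only partly overlap a region are counted, which raises reads per 100 bp more in the shorter intron region (136 bp against 269 bp). These ratios therefore understate the promoter. Relative to an even spread of tags, which allows for this, promoter and intron had 17.0 and 2.69 times in OPC replicate 1. In OL replicate 4 they had 7.62 and 9.96 times. The intron bounds are those of the peak in OPC replicate 4, which favours the intron in that library. Without OPC replicate 4 the geometric mean was 1.56, with 4 of 6 libraries above 1 (exact sign-flip permutation test, two-sided, p = 0.219). OPC replicate 1, whose peak set the promoter bounds, was kept in both runs. Across libraries the 2 regions did not follow each other, with a Pearson correlation of their TMM-scaled log2 counts of 0.06 over 7 libraries.

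Among all regions, the promoter of Srf stood near the middle of the reproducible sites. Its mean over the 7 libraries was 24.1 normalised reads, against a median of 12.2 for all 848 regions and 24.1 for the 448 reproducible ones. It placed 268th of 848 and 147th of 295 reproducible promoter sites. Per 100 bp it placed 310th of 848, with 8.96 normalised reads against a median of 7.15. The intron region placed 527th of 848, with 8.53. The promoter mean includes 54.7 normalised reads in OL replicate 2, from 9 reads, against 11.6 to 25.5 in the other libraries. The place of the promoter without OL replicate 2 was not computed.

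**Figure D5:**
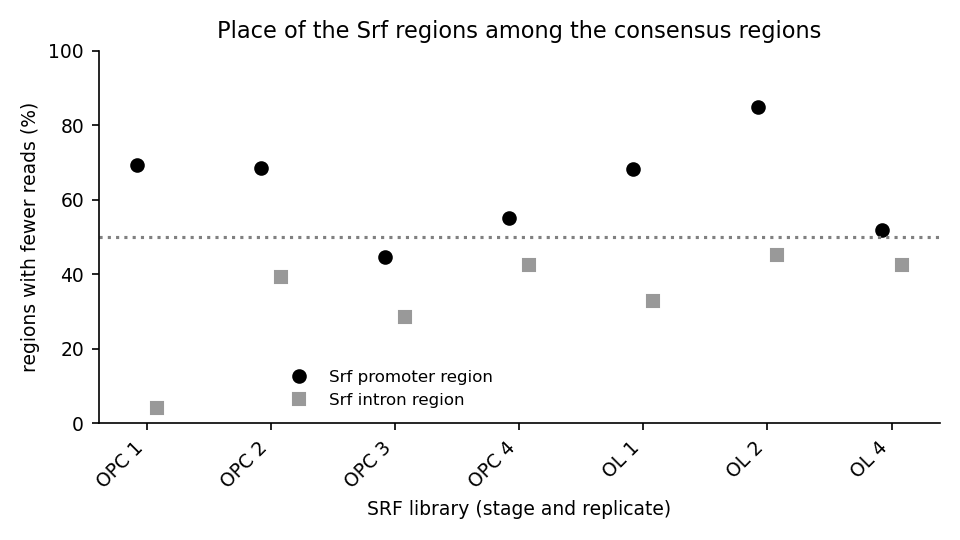
Share of the 848 consensus regions, in percent, with fewer reads than the Srf promoter region (circles) and the Srf intron region (squares) in each SRF library. The promoter lies between 44.6% (OPC replicate 3) and 84.9% (OL replicate 2), and the intron below 50% in all 7 libraries.

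The reproducible promoter sites next to Srf in level were those of Cnot4 (a ubiquitin ligase of the CCR4-NOT complex), Irf2bp1 and Ing3 above, at 24.5, 24.3 and 24.2 normalised reads per region (not divided by length). Below it were Dgat1 (an enzyme of triglyceride synthesis), Chchd3 and Terf2 (a telomere-binding protein), at 24.0, 23.8 and 23.5. The SD of Srf over the 7 libraries was 14.7, so the order among these 7 sites is not resolved. That SD was also the largest of the 7, the others running from 3.96 for Irf2bp1 upward.

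The regions whose pattern over the 7 libraries was most like that of the Srf promoter included a pair of immediate early genes. Of 556 other tested regions, the highest Pearson correlations of TMM-scaled log2 counts were those of Fosb (a subunit of the AP-1 transcription factor; r = 0.92), Mpdu1 (r = 0.92), Homer1 (a postsynaptic scaffold protein whose short form is an immediate early product; r = 0.91), Fbxo46 (r = 0.88) and Cyb561d2 (r = 0.88). Correlations with all regions had quartiles of -0.61 and 0.44. Fosb held 33, 40, 25 and 41 reads in OPC replicates 1 to 4 and 37, 15 and 6 in OL replicates 1, 2 and 4. In raw reads, Fosb and the other regions named here had, like Srf, less in OPC replicate 3 than in the other OPC libraries. That library also had the fewest reads over all consensus regions among the OPC libraries (23055). The correlations use scaled counts, on which Srf was highest in OL replicate 2 (54.7 normalised reads, from 9 reads). There Fosb, Mpdu1, Homer1, Fbxo46 and Cyb561d2 held 15, 13, 11, 7 and 13 reads, so their scaled values in that shallow library rest on few reads. All values come from the same 7 libraries and their scaling, so these correlations are a description.

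Regions at the genes of SRF cofactors, of their regulators and of known SRF targets were counted beside Srf. Over all 27457 symbols of the RefSeq promoter table, 418 (1.52%) had a consensus region of that gene name within 10 kb of the TSS. In a list of 20 names for SRF, its cofactors and their upstream regulators, which holds the MRTF genes under older and newer symbols, 1 gene had such a region, and that gene was Srf. At a background this low, 0 among the other names says nothing particular about the cofactors. Among known targets through ternary complex factors 10 of 12 names had a region, and among known targets through MRTF 9 of 18. Of these 10 and 9 genes, 8 and 7 are symbols of the RefSeq table on which the 1.52% is based. The log2 fold change of OL over OPC was positive at both Srf regions, at 9 of 10 tested regions of the first target list (median 0.38) and at 6 of 7 of the second (median 0.63), beside a median of -0.01 over all 557. The lists were chosen with earlier results of these data known, so these counts are a description. Egr3 and Actb each count with 2 regions, and the share of positive regions over all 557 was not counted. By edgeR 0 of 10 and 1 of 7 passed, and 0 of 2 at Srf. The one that passed lies upstream of Actg1 (log2 fold change 1.46, edgeR adjusted p = 0.0364). Scaled to all tags in place of TMM, the median of all regions fell to -0.35, the target lists had medians of 0.19 and 0.20, and 7 of 10 and 6 of 7 regions were positive, as were both of Srf (0.30 at the promoter and 0.0092 at the intron). Per 100 bp of region, the Srf promoter had 8.96 normalised reads on average over the 7 libraries. Egr1 had 25.2, the upstream region of Egr3 19.3, the upstream region of Actb 16.4 and Dusp5 14.2. Fos (8.71) and Fosb (8.11) lay close to Srf, and Vcl, which encodes the adhesion protein vinculin, had 6.25.

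Other consensus regions along the chromosome were located from the Srf TSS. How common such distances are among all consensus regions was not counted. The 4 other consensus regions within 500 kb were all more than 100 kb away. The nearest were at the promoter of Klhdc3, at -125411 bp from the Srf TSS and called in OPC replicate 4 alone, and in an intron of Ttbk1 (a tau tubulin kinase), at 125261 bp and called in 3 OPC libraries. The Ttbk1 region averaged 14.2 ± 1.77 normalised reads over the OPC libraries (SD, n = 4). Over the OL libraries it averaged 6.39 ± 3.10 (SD, n = 3), and the fitted log2 difference was -0.79 ± 0.35 (adjusted p = 0.240 by edgeR). At Gtpbp2, 469477 bp away, it was -0.55 ± 0.29 (adjusted p = 0.288 by edgeR). Neither passed, and whether either differed from Srf was not tested.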

How the data were processed

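Peak calling was done library by library against input with MACS 2.2.7.1 (q-value 0.05, duplicates kept at this step), per the file headers. Each IgG library was set against the replicate 1 input from its own stage. Each deposited peak carries a pileup signal, a fold enrichment ratio over input, and −log10 of its p-value and q-value. The authors counted reads over the consensus regions with featureCounts 2.0.1, and the deposited values are whole counts that are not normalised, for which a read had to lie in a region with a fraction of 0.2 of its length, per the file headers. Trim Galore, BWA, HOMER and the build Rnor_6.0 are named in the submitters' processing notes. How duplicates were treated before peak calling is not given in the sources used here. The fragment length that MACS estimated was 296 bp in OL replicate 2 and 72 to 86 bp in the other SRF libraries. The library labelled OL replicate 4 carries another replicate number, 3, in its file headers, and was assigned by the sample it was deposited under.

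A region counted as called when a peak overlapped it by at least 1 bp. Of 848 regions, the 557 that reached 10 reads in 3 or more libraries were tested with edgeR 4.0.16 (R 4.3.3, TMM scaling over the regions, quasi-likelihood test, stage as the only term), checked on simulated counts. DESeq2 1.42.0 was an alternative. Normalised reads are counts after division by effective (TMM) library size over the mean of these sizes. Single values were compared by exact permutation tests (scipy 1.17.1). Promoter sequences are RefSeq windows of GRCr8; a genome of Rnor_6.0 was not used here. Named regions were the 5 most correlated with the Srf promoter, 3 promoter sites on either side of it in level, every region within 500 kb and the listed genes. Members, lists and tests were chosen with earlier results of these data known. Per the labels' protocols, the plates of a preparation were divided between the stages, but no label ties a replicate number to a preparation, so the comparisons are unpaired.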

Additional observations from a re-analysis of the deposited data

How the results depend on the processing

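The log2 fold change at the Srf promoter kept its sign in all 14 alternative fits and passed in 0 of them, between 0.18 and 0.69 (adjusted p from 0.469 to 0.914). By DESeq2 it was 0.54 (adjusted p = 0.568). Leaving out 1 library at a time gave 0.18 (without OL replicate 2) to 0.69 at the promoter and -0.04259 (without OPC replicate 1) to 0.57 at the intron. The difference in RPM ranged from -0.159 to 1.12 at the promoter and from -0.240 to 0.379 at the intron over the libraries left out. Scaled to 1000 reads in all regions, the intron difference was 0.0549 with the opposite sign to that in RPM. The number of called libraries at each Srf region was the same at a q-value of 0.01. A rule that at least 50% of the peak must overlap could not change it, because every peak at Srf lies wholly within its region. The number of regions that differed between the stages was 12, and 42 by DESeq2, 0 when scaled to all tags (40 at an unadjusted p under 0.05), 22 without the filter on low counts, 35 over reproducible sites, 1 without both shallow OL libraries, and 1 to 31 with 1 library left out. Scaling to all tags moved the median log2 fold change of all regions to -0.35. With 9 and 4 reads at the promoter, OL replicates 2 and 4 limit every comparison of the stages. OPC and OL share the numbers 1, 2 and 4. After subtraction of stage means their same-numbered libraries correlated at 0.09, 0.27 and 0.16. Pairs with unlike numbers ran from -0.32 (OPC replicate 4 with OL replicate 2) to 0.28 (OPC replicate 4 with OL replicate 1). Correlations this low, with overlapping ranges, cannot decide whether a shared number means a shared preparation. A replicate block gave log2 fold changes of 0.24 at the promoter (edgeR adjusted p = 0.753) and 0.71 at the intron (edgeR adjusted p = 0.517), 0 regions that differed by edgeR (106 at an unadjusted p under 0.05) and 0 of 7 for MRTF targets, and it changed no call at Srf. It takes OL replicate 4 by its title, whereas the file headers number that library 3.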

Other observations

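Exact CArG boxes were found in the promoter windows of few of the genes that SRF regions marked, though in a larger share of them than of all genes. Of 297 gene names with a reproducible region within 1 kb of the TSS, 225 matched a RefSeq promoter window, and 11 of these held a box (4.89%), beside 485 of all 27457 symbols (1.77%). The difference between these shares was not tested. By gene name, 0.793% of symbols with 0 boxes and 1.67% of those with 1 box had such a region. Of the 7 symbols with 2 or more boxes it was 3 (Srf, Egr1 and Dusp5). Some of these windows share DNA, and counted by separate stretches it was 3 of 5. The windows cover 300 bases around 1 TSS each, and the stronger region of Actb, for example, was centred at -806 bp.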
